A study of Mus musculus with 6 samples.

Results

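Proplatelets are the long processes through which megakaryocytes (MKs) release platelets, and 10 genes of their cytoskeleton were examined in RNA of MKs sorted from mouse bone marrow. The genes were taken by symbol from a list of cytoskeletal genes of proplatelet formation and inherited thrombocytopenia: Tubb1, Flna, Myh9, Actn1, Tpm4, Diaph1, Wdr1, Tln1, Was and Cdc42. All 10 were found among the 16579 genes of the expression table, and all 10 were among the 12256 genes with enough reads to be tested.

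The cells came from 3-month-old mice, and 6 libraries were sequenced, 3 per genotype. The first genotype was Becn1f/f, in which both copies of Becn1, a gene of the autophagy pathway, are flanked by loxP sites. The second was Becn1f/f;Pf4-iCre, which carries the same floxed alleles plus Cre recombinase driven by Pf4 regulatory sequence, so that deletion is directed to the megakaryocytic lineage. These are called the Pf4-iCre libraries here, and controls without floxed alleles or with Cre alone are not analysed here. The labels do not say whether the libraries of a genotype came from separate mice, so p-values measure only the spread between these samples.

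A proplatelet is pushed out by bundled microtubules that slide along each other, and a microtubule coil later keeps the shape of the circulating platelet. Actin filaments branch the proplatelets and anchor the membrane, while nonmuscle myosin II pulls on the filaments and restrains release. Inherited defects in several of these genes cause low counts of enlarged platelets, whereas loss of Was causes small ones.

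Promoters of these genes differ in base composition, and 3 are shown because they hold few or many CpG dinucleotides and belong to genes at very different levels in these libraries. They are RefSeq sequences on GRCm38.p6, running from 250 bases before to 50 bases after the annotated start of the gene, read 5′ to 3′ on the strand of the gene, with every CpG dinucleotide in capitals. Tubb1, a β-tubulin made mainly by MKs and platelets, is at chr2:174450345-174450644 on the plus strand. Was, the blood cell activator of branched actin assembly, is at chrX:8090442-8090741 on the minus strand. Flna, a filamin found in most cell types, is at chrX:74246485-74246784 on the minus strand.
Tubb1: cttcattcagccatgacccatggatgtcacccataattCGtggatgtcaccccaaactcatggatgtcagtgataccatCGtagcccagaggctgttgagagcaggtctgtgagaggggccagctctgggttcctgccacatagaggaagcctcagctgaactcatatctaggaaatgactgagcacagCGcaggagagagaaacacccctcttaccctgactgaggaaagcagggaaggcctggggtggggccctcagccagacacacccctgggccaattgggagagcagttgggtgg
Was: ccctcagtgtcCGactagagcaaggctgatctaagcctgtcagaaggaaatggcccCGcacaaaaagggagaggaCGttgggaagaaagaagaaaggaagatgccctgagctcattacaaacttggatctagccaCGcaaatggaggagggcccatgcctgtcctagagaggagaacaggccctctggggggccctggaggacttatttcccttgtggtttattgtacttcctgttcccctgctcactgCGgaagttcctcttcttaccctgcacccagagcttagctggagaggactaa
Flna: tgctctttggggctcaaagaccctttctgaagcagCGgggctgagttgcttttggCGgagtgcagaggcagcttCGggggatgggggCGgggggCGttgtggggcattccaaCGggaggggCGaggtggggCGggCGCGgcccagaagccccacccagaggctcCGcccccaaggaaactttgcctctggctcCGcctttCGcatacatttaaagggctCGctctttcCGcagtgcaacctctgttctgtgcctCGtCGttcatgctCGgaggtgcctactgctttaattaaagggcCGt

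The capitals are sparse in Tubb1 and Was and crowded in Flna. The Tubb1 promoter held 3 CpG dinucleotides, fewer than the median of 7 over 32851 RefSeq promoters of the same length, and 23.3% of those promoters held fewer still. The Was promoter held 5, and the Flna promoter held 19, a count that 71.9% of promoters did not reach. Of the 9 genes with a RefSeq promoter here, the remaining 6 lay between 16 in Tln1 and 38 in Wdr1. The GC box letters GGGCGG, searched on both strands, occurred in 6 of the 9 promoters and in 35.7% of all promoters. The letters TATAAA occurred in 2 of the 9, Myh9 and Cdc42, and in 13.6% of all promoters. Neither AGATAA, the core letters bound by GATA factors, nor TGAGTCA, a core of sites bound by NF-E2, occurred in any of the 9 windows, against 11.2% and 5.20% of all promoters. Each GGGCGG match contains a CpG, none of the other 3 motifs does, and a match or its absence describes only these windows.

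Levels of the 10 genes were compared in FPKM, which scales for transcript length and library size. Flna was the highest with a mean of 445.9 FPKM over the 6 libraries, followed by Cdc42 with 362, Myh9 with 346 and Tln1 with 261. Wdr1 at 153, Tpm4 at 136, Diaph1 at 101 and Was at 97.3 FPKM formed the middle of the order. Actn1 stood at 31.7 FPKM and Tubb1 at 1.89 FPKM, so the other 9 genes were 16.7 to 236 times as high as Tubb1.

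Neighbours in this order could not always be separated. The ranges over the 6 libraries overlapped between Cdc42 and Myh9, Myh9 and Tln1, Wdr1 and Tpm4, and Diaph1 and Was. They did not overlap between Flna and Cdc42, Tln1 and Wdr1, Tpm4 and Diaph1, Was and Actn1, or Actn1 and Tubb1. When CPM (counts scaled to library size, with TMM factors to balance the libraries) was divided by the length of the longest annotated transcript in kilobases instead, Myh9 at 331 passed Cdc42 at 325, and Tpm4 at 114 passed Wdr1 at 104.9. Flna ranked 200 among all 16579 genes by mean FPKM, whereas Tubb1 ranked 10089, with 39.2% of genes below it.

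**Figure D1:**
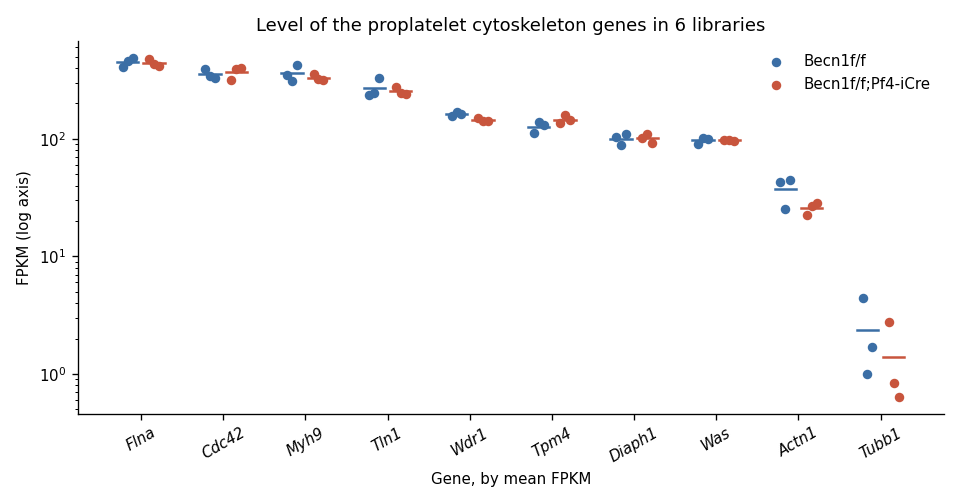
FPKM of the 10 genes in each of the 6 libraries, on a log axis, with genes in order of their mean, points coloured by genotype and lines for the mean of each genotype. The first 8 genes lie between 87.8 and 490.3 FPKM, Actn1 lies between 22.6 and 44.2, and Tubb1 lies between 0.64 and 4.45.

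The genes together took 0.970% to 1.19% of the counts of a library, and Flna, Myh9 and Tln1 made up 77.4% to 81.5% of that share. Between libraries, 8 of the 10 genes varied by less than 1.5-fold in CPM from the lowest library to the highest. The exceptions were Actn1 and Tubb1, and Tubb1 varied 7.21-fold.

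The labelled cell type was checked with 21 further MK and platelet genes. Of these, 14 had a mean between 0.19 and 4.26 FPKM, among them the glycoprotein genes Gp1ba, Gp9 and Gp6. Another 6 lay between 5 and 100 FPKM, including Itga2b, which encodes CD41, at 45.8 to 62.0 FPKM. Thbs1, thrombospondin, lay at 370.2 to 783 FPKM, and none of the 21 was at 0 in any library. S100a8, a calprotectin subunit that is abundant in neutrophils, lay at 4944 to 14716 FPKM. Most of the genes that define MKs were thus low in these libraries, as Tubb1 was. In such bulk samples, fewer cells of a type and less RNA per cell cannot be told apart. Apart from Tubb1, the proplatelet cytoskeleton genes are also known to be active in white blood cells, so their level is not a measure of MKs alone.

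Summed markers of other cell types differed between the libraries. The summed CPM of 14 erythroid markers was 982, 796 and 655 in the Becn1f/f libraries and 512, 652 and 599 in the Pf4-iCre libraries, without overlap. That of 15 macrophage markers was 838, 837 and 797 against 1053, 915 and 859, also without overlap, with Marco and Timd4 at 0 in some libraries. That of 16 neutrophil markers was 17458, 12360 and 14406 against 9598, 9994 and 12876, which overlap. Of the 16, 15 were nominally lower, as were 6677 of all 12256 tested genes. Only 1 passed the fold and unadjusted p thresholds, beside 0.938% of all tested genes lower. Without a minimum fold 7 were lower at an unadjusted p under 0.05 in edgeR's quasi-likelihood test, beside 2.39%. The summed CPM of the 21 MK markers was 5321, 2842 and 2995 against 4765, 3533 and 2787. It was highest in replicate 1 of both genotypes and came mostly from Thbs1, with means of 2862 and 2922 CPM. Of the 19 of these markers that were tested, 1 passed the fold and unadjusted p thresholds, beside 2.3% of all tested genes (0.938% lower). This was Pf4, platelet factor 4. It had 13.95, 24.1 and 15.5 FPKM in the Becn1f/f libraries and 10.4, 8.13 and 7.88 FPKM in the Pf4-iCre libraries. The genotypes did not overlap in FPKM or in CPM, and 10.6% of all tested genes did not overlap in CPM. The log2 difference of Pf4 was -1.01 (standard error 0.29, adjusted p = 0.42 by edgeR's quasi-likelihood test).

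**Figure D2:**
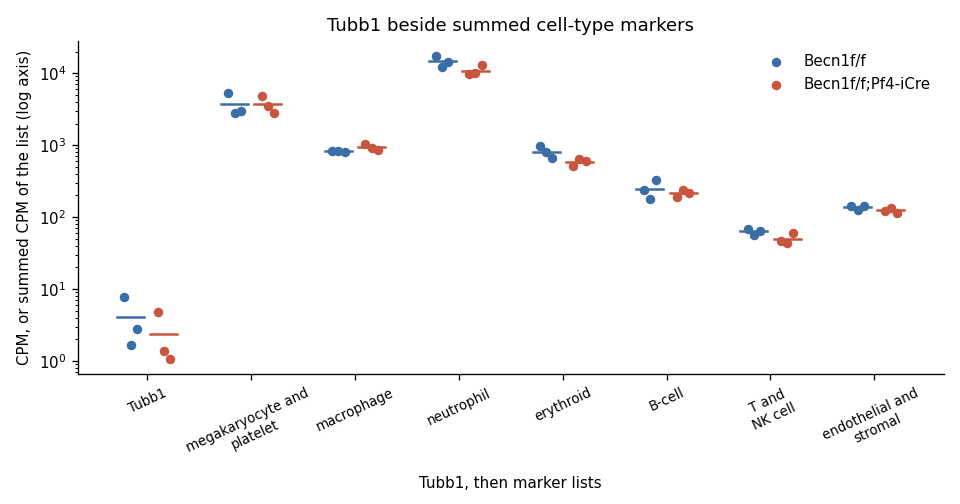
CPM of Tubb1 and summed CPM of 7 marker lists on a log axis, with a point for each library in replicate order, a line for the mean and the genotypes side by side. The erythroid and macrophage sums do not overlap between the genotypes, whereas Tubb1 and the other sums do, and Tubb1 and the MK sum are highest in replicate 1 of both.

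The question put to the genes was whether their RNA differed between the genotypes. None of the 10 passed a fold change of 1.5 with an unadjusted p under 0.05 in edgeR's quasi-likelihood test, thresholds that 282 of all 12256 tested genes passed (2.3%, of which 1.36% of genes were higher and 0.938% lower in the Pf4-iCre libraries). DESeq2 and limma-voom also called 0 of the 10. Without a minimum fold, 1 of the 10 had an unadjusted p under 0.05, Actn1, which was lower, against 6.31% of all tested genes in either direction, 3.92% higher and 2.39% lower. At an adjusted p under 0.05, 0 of the 10 were called, as against 5 of all tested genes (0.0408%). In the Pf4-iCre libraries 4 genes were nominally higher and 6 nominally lower, with a median log2 fold change of -0.04 beside -0.02 over all tested genes.

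How large a difference in the RNA of whole samples could have been missed can be read from the 95% intervals of the fold. They do not bound a difference confined to some of the cells, which were not measured apart. For 8 of the 10 genes the whole interval lay inside a 1.5-fold change in either direction, from 0.729 at the lowest to 1.41 at the highest bound. The intervals of Actn1 and Tubb1 were wider. Becn1 itself differed little, at 128, 109 and 119 CPM in the Becn1f/f libraries and 106.4, 104.4 and 109.8 in the Pf4-iCre libraries, which overlap, a log2 difference of -0.15 (standard error 0.12, adjusted p = 0.94 by edgeR's quasi-likelihood test). The authors reported less Becn1 mRNA by quantitative PCR in CD41-positive cells sorted from bone marrow, and no change in CD41-negative cells. They also reported less Becn1 in MKs by imaging flow cytometry and no detectable Becn1 protein in platelets, neither of which was measured here. The counts here are per gene and were not split by exon. Direction is therefore given for the libraries labelled Pf4-iCre.

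**Figure D3:**
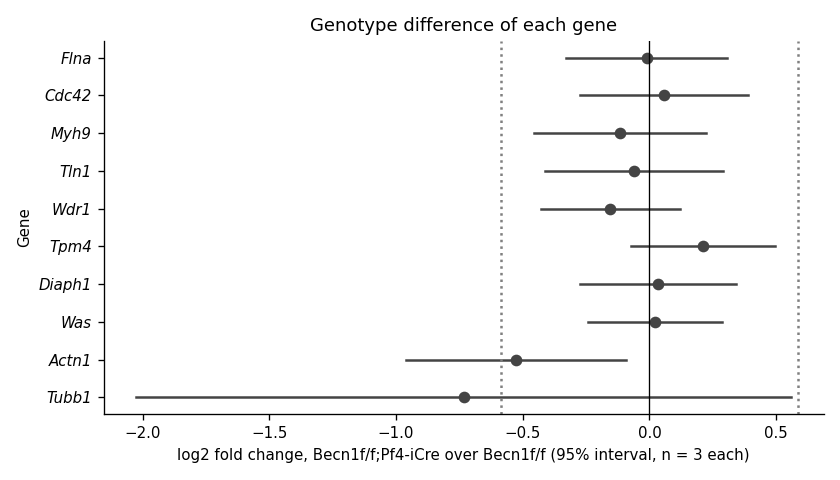
Log2 fold change of the 10 genes in the Pf4-iCre against the Becn1f/f libraries, with 95% intervals from edgeR's quasi-likelihood fit and lines at a 1.5-fold change in each direction. Of the 10 intervals, 8 stay inside the lines, and those of Actn1 and Tubb1 cross the lower line.

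Tubb1 encodes β1-tubulin, the main β-tubulin of the platelet's microtubule coil. Its estimated counts were 123, 29 and 49 in the Becn1f/f libraries and 80, 23 and 18 in the Pf4-iCre libraries, or 7.71, 1.67 and 2.77 CPM against 4.79, 1.39 and 1.07 CPM. Replicate 1 was highest in each genotype, and the genotypes overlapped. At this depth, replicate 1 of Becn1f/f had a Tubb1 CPM of 7.46 before TMM scaling, with an exact binomial 95% interval of 6.20 to 8.90, whereas replicate 2 of the same genotype had 1.70 with an interval of 1.14 to 2.44. Libraries of 1 genotype thus differed by more than counting error, which is all that these intervals cover.

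Tubb1 differed by -0.73 on the log2 scale (standard error 0.59, adjusted p = 0.92 by edgeR's quasi-likelihood test), and an exact two-sided permutation test gave p = 0.5. The 95% interval of the fold ran from 0.246 to 1.47, which includes no change. Leaving out a single library reversed the direction in 1 of 6 fits, to 0.13 without replicate 1 of Becn1f/f. Without replicate 1 of Pf4-iCre it was -1.71, which passed the fold and unadjusted p thresholds (adjusted p = 0.59 by edgeR's quasi-likelihood test).

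Of the 21 other MK markers, 6 were also highest by FPKM in replicate 1 of both genotypes, namely Ppbp, Gp6, Treml1, Clec1b, Mpig6b and Thbs1. The set depends on the scale, since by estimated counts Gp1ba was so too, at 116, 73 and 113 against 87, 73 and 62. The share of all tested genes with this order was not computed, so the count is a description only. Ppbp, a platelet chemokine, had 13.02, 2.63 and 6.0 FPKM in the Becn1f/f libraries and 12.8, 6.28 and 1.65 in the Pf4-iCre libraries. Thbs1 had 783, 387 and 374 FPKM against 693, 506 and 370.2. The part of these cells' RNA in the Tubb1 values was not tested.

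Across the 6 libraries, the 4 genes whose log2 CPM followed that of Tubb1 most closely were Ewsr1, Baiap2, Tcn2 and Tprgl, with Pearson correlations of 0.991, 0.989, 0.985 and 0.984. These are the highest of all tested genes over only 6 points and serve as a description. Ewsr1 had 532, 459.6 and 474 CPM in the Becn1f/f libraries and 503, 449 and 447 in the Pf4-iCre libraries, a far narrower range than that of Tubb1.

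Other β-tubulins made up nearly all of the β-tubulin RNA. Tubb1 held 0.0927% to 0.644% of the summed FPKM of 8 β-tubulin genes, whereas Tubb5 held 55.1% to 59.1% and Tubb4b 32.0% to 38.7%. The share of Tubb4b was lower in the Pf4-iCre libraries, 33.3% ± 1.33 against 37.7% ± 0.906 (SD, n = 3), without overlap. The share of Tubb2a was higher, 5.34% ± 1.76 against 2.99% ± 0.319 (SD, n = 3), also without overlap. An exact two-sided permutation test of either share gave p = 0.1, the smallest that 3 against 3 samples allow. Shares within a family depend on each other. The FPKM of Tubb2a itself overlapped between the genotypes, whereas that of Tubb4b did not.

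**Figure D4:**
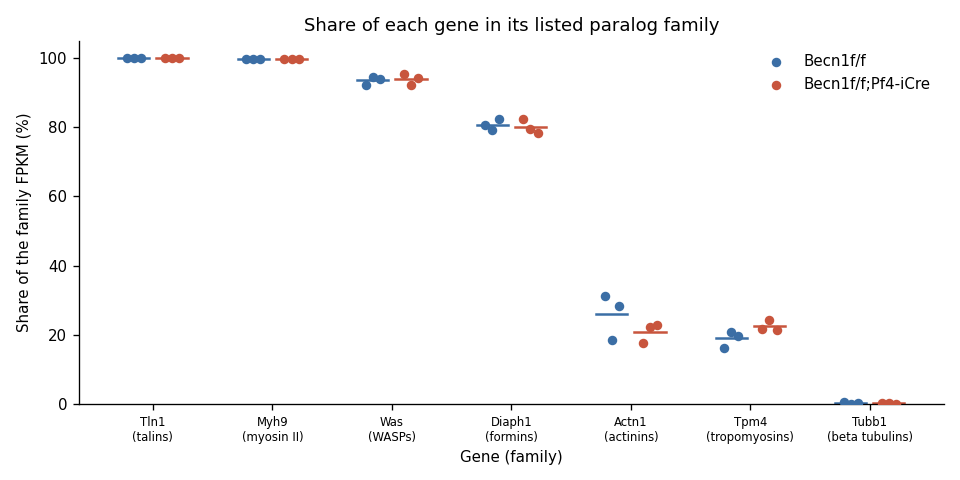
Share of each gene in the summed FPKM of its gene family, in percent, for each of the 6 libraries, with lines for the genotype means and for 7 of the 10 genes. Tln1, Myh9 and Was hold over 92% of their families, Diaph1 holds 78.4% to 82.4%, Actn1 and Tpm4 hold 16.3% to 31.3%, and Tubb1 holds under 1%.

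Among the genes that crosslink or anchor actin filaments, Actn1 came closest to the thresholds. It encodes α-actinin-1, which bundles actin filaments, and heterozygous mutations in it cause large platelets. Actn1 measured 152.6, 84.9 and 146.4 CPM in the Becn1f/f libraries and 80.01, 90.2 and 96.3 CPM in the Pf4-iCre libraries. Replicates 1 and 3 of Becn1f/f were high, whereas replicate 2 lay among the Pf4-iCre libraries, so the genotypes overlapped.

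The Actn1 means were 128 ± 37.4 and 88.8 ± 8.24 CPM (SD, n = 3). The fold was 0.694 with a 95% interval of 0.514 to 0.937, and the log2 fold change of -0.53 (standard error 0.20) had an unadjusted p of 0.021 but an adjusted p of 0.66 by edgeR's quasi-likelihood test. By unadjusted p, Actn1 ranked 396 of the 12256 tested genes, and the exact two-sided permutation test gave p = 0.3. The difference was short of 1.5-fold over all libraries. Without replicate 2 of Becn1f/f the log2 fold change was -0.75 and without replicate 3 of Pf4-iCre it was -0.59, and both passed the fold and unadjusted p thresholds, with adjusted p between 0.16 and 1.0 by edgeR's quasi-likelihood test over the 6 fits that left out a library. Over the other settings tried, the adjusted p of Actn1 lay between 0.40 and 0.85 and its unadjusted p between 0.011 and 0.065. The summed neutrophil markers were likewise highest in replicates 1 and 3 of Becn1f/f, at 17458 and 14406 CPM. So were the summed T and NK cell markers, at 69.4 and 63.8 CPM, and the endothelial and stromal markers, at 141.5 and 144.4 CPM. Each of the latter sums came mostly from a single gene that is not a measure of those cells alone. These were Nkg7, with means of 50.4 CPM in Becn1f/f and 38.1 in Pf4-iCre libraries, and Pecam1, with 107.7 and 94.6 CPM. The erythroid, macrophage, B-cell and MK sums did not follow this order. The part of any of these cells in the Actn1 values was not tested.

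Actn1 ranked after Actn4 among the 4 α-actinins. It held 31.3%, 18.5% and 28.3% of the family's FPKM in the Becn1f/f libraries and 17.6%, 22.2% and 22.9% in the Pf4-iCre libraries. Actn4, the other broadly expressed α-actinin, held 68.3% to 82.0%, at 105.5 ± 9.78 FPKM in Becn1f/f and 97.6 ± 7.01 in Pf4-iCre libraries (SD, n = 3), a log2 difference of -0.09 (standard error 0.13).

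**Figure D5:**
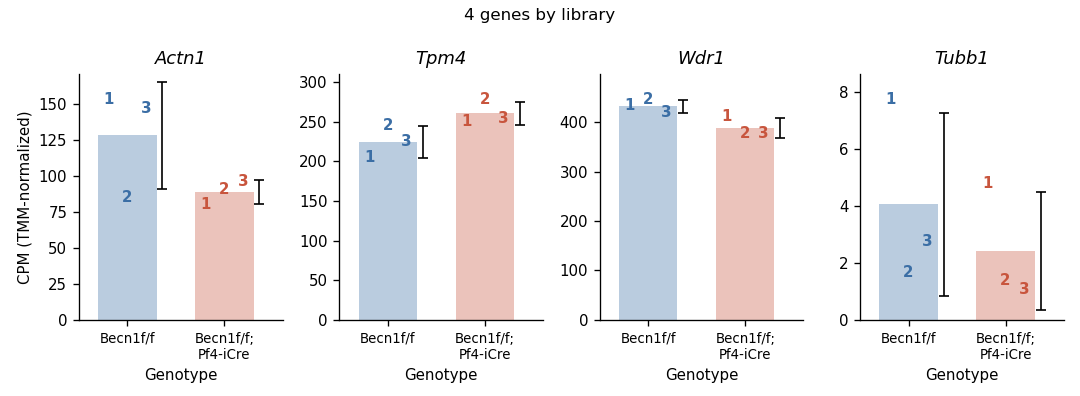
CPM of Actn1, Tpm4, Wdr1 and Tubb1 by genotype, each on its own axis from 0, with bars for the mean, error bars for the SD of 3 libraries and digits for the replicate number of each library. Tpm4 and Wdr1 show no overlap between the genotypes, Actn1 overlaps through replicate 2 of Becn1f/f, and Tubb1 is highest in replicate 1 of both.

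Flna encodes filamin A, which crosslinks actin filaments and ties them to the von Willebrand factor receptor of platelets. It measured 3368, 3629 and 3823 CPM in the Becn1f/f libraries and 3930, 3456 and 3351 CPM in the Pf4-iCre libraries. Both the highest and the lowest library carried Pf4-iCre. On the log2 scale the difference was -0.01 ± 0.15 (standard error), with a 95% interval of the fold of 0.797 to 1.24.

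Tln1 encodes talin-1, which links integrins to actin and switches the platelet integrin on. It measured 1979, 1966 and 2621 CPM in the Becn1f/f libraries and 2322, 1997 and 1978 CPM in the Pf4-iCre libraries. Replicate 3 of Becn1f/f stood above the rest, and the other 5 libraries were mixed. On the log2 scale the difference was -0.06 ± 0.16 (standard error) with a fold interval of 0.752 to 1.22, and without replicate 3 of Becn1f/f it was 0.089. Talin-1 held 99.9% of the talin FPKM in each library.

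Myh9 encodes the heavy chain of nonmuscle myosin IIA, the motor that contracts actin in MKs and platelets. It measured 2556, 2192 and 2938 CPM in the Becn1f/f libraries and 2586, 2280 and 2224 CPM in the Pf4-iCre libraries. As for Tln1, the highest value was in replicate 3 of Becn1f/f and the genotypes overlapped. The log2 fold change was -0.12 (standard error 0.16), with a fold interval of 0.729 to 1.17. Myh9 held 99.7% to 99.8% of the FPKM of the 3 nonmuscle myosin II heavy chains. Its share did not overlap between the genotypes, but the means differed by only 0.044 percentage points, beside Myh10 at 0.57 to 0.83 FPKM.

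Tpm4 encodes a tropomyosin that coats actin filaments and governs which proteins bind them. It measured 204.7, 244.8 and 225.4 CPM in the Becn1f/f libraries and 250.04, 277.5 and 254.2 CPM in the Pf4-iCre libraries. Every Pf4-iCre library was above every Becn1f/f library, with means of 225 ± 20.0 and 261 ± 14.8 CPM (SD, n = 3). The log2 difference of 0.21 (standard error 0.13, adjusted p = 0.88 by edgeR's quasi-likelihood test) did not pass the test, and the fold interval was 0.951 to 1.41. In FPKM the separation was lost, since replicate 2 of Becn1f/f at 138.8 FPKM lay above replicate 1 of Pf4-iCre at 135.4 FPKM.

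Within the tropomyosins, Tpm4 took 18.996% ± 2.39 of the FPKM in the Becn1f/f libraries and 22.5% ± 1.63 in the Pf4-iCre libraries (SD, n = 3), without overlap. Tpm3 held 73.4% to 81.1% and was the major gene of the family. Tpm1, at 2.54% ± 0.109 against 2.24% ± 0.0684 (SD, n = 3), was lower without overlap. An exact two-sided permutation test gave p = 0.1, the smallest possible, for the shares of Tpm4 and Tpm1, which depend on each other.

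Wdr1 encodes the cofactor with which cofilin takes actin filaments apart. It measured 433.0, 444.6 and 418.8 CPM in the Becn1f/f libraries and 411.6, 376.6 and 376.4 CPM in the Pf4-iCre libraries. All Pf4-iCre libraries were below all Becn1f/f libraries, in FPKM as well as in CPM, with means of 432 ± 12.9 and 388 ± 20.3 CPM (SD, n = 3). The log2 difference of -0.15 (standard error 0.13, adjusted p = 0.92 by edgeR's quasi-likelihood test) did not pass the test, and the fold interval was 0.743 to 1.09. Tpm4 and Wdr1 were the only members whose CPM did not overlap between the genotypes, 2 of 10 beside 10.6% of all tested genes.

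Diaph1 encodes the formin mDia1, which lengthens unbranched actin filaments downstream of RhoA. It measured 572.3, 463.7 and 565.9 CPM in the Becn1f/f libraries and 565.0, 579.2 and 496.5 CPM in the Pf4-iCre libraries. The 2 low libraries were of different genotype. The log2 fold change was 0.03 (standard error 0.14), with a fold interval of 0.827 to 1.27. Diaph1 held 78.4% to 82.4% of the FPKM of the 3 diaphanous formins, ahead of Diaph3 and Diaph2.

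Was encodes WASP, which turns on the ARP2/3 complex to branch actin and is found only in blood cells. It measured 163.5, 178.9 and 172.0 CPM in the Becn1f/f libraries and 180.3, 172.7 and 169.7 CPM in the Pf4-iCre libraries. The genotypes were interleaved over a narrow range. On the log2 scale they differed by 0.02 ± 0.12 (standard error), with a fold interval of 0.846 to 1.22. Its share of WASP and N-WASP FPKM was 92.1% to 95.3%.

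Cdc42 encodes the small GTPase that activates WASP and sets the polarity of the MK. It measured 778.1, 635.4 and 597.5 CPM in the Becn1f/f libraries and 611.7, 742.3 and 740.7 CPM in the Pf4-iCre libraries. The genotypes overlapped, with replicate 1 the highest of Becn1f/f and the lowest of Pf4-iCre. On the log2 scale the difference was 0.06 ± 0.15 (standard error), with a fold interval of 0.828 to 1.31.

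Around these genes stand 145 relatives, comprising their paralogs and the proteins that they bind or act on, of which 139 were tested. The fold and unadjusted p thresholds were passed by 3 of them, or 2.16% beside 2.3% of all tested genes. Their median log2 fold change was -0.02, as over all genes, and 15 did not overlap between the genotypes, or 10.8% beside 10.6%. At an unadjusted p under 0.05 and any fold, 3 were higher and 6 lower, beside 3.92% of all tested genes higher and 2.39% lower.

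The 3 relatives past the thresholds were Tubb2a, Tuba8 and Ank1, and none had an adjusted p under 0.05 by edgeR's quasi-likelihood test. Tubb2a, a β-tubulin, rose from 22.3, 27.1 and 19.1 FPKM to 48.3, 36.4 and 23.0 FPKM, a log2 difference of 0.67 (standard error 0.24, adjusted p = 0.60 by edgeR's quasi-likelihood test). The genotypes overlapped through replicate 3 of Pf4-iCre, and the call was lost without replicate 3 of Becn1f/f (log2 fold change 0.54) and without replicate 1 of Pf4-iCre (0.37). Tuba8, an α-tubulin, fell from 14.9, 17.9 and 22.1 FPKM to 9.70, 10.4 and 14.1 FPKM without overlap, a log2 difference of -0.67 (standard error 0.19, adjusted p = 0.39 by the same quasi-likelihood test). Without replicate 3 of Becn1f/f, Tuba8 was at -0.53 and no longer past the fold.

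Ank1 encodes the ankyrin that ties spectrin to the red cell membrane. It fell from 0.717 ± 0.228 to 0.333 ± 0.119 FPKM (SD, n = 3), a log2 difference of -1.09 (standard error 0.30, adjusted p = 0.39 by edgeR's quasi-likelihood test), and the genotypes did not overlap. All 14 tested erythroid markers were nominally lower in the Pf4-iCre libraries as well, 6 of them past the thresholds beside 0.938% of all genes in that direction, and their part in the Ank1 value was not tested. Ank1 kept its call without each library in turn.

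In the microtubule list, 1 of 19 tested genes passed the thresholds, Tuba8, beside 2.3% of all tested genes. Of the 19, 14 were nominally lower, as were 6677 of all 12256 tested genes, and the median log2 fold change was -0.17 beside -0.02. The most abundant of them was Tuba1b, an α-tubulin, at 873.8 ± 151.6 FPKM in Becn1f/f and 729.6 ± 115.6 FPKM in Pf4-iCre libraries (SD, n = 3). Stmn1, stathmin, which binds free tubulin, had 434.6 ± 20.9 against 423.8 ± 42.7 FPKM (SD, n = 3). Among the paralogs, Tubb4b had a log2 difference of -0.34 (standard error 0.16) and Rhob, a GTPase close to RhoA, of 0.46 (standard error 0.19), and both had an unadjusted p under 0.05 without reaching 1.5-fold.

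In the list of actin and its assembly, 0 of 23 tested genes passed the thresholds in edgeR, beside 2.3% of all tested genes, and 1 had an unadjusted p under 0.05, beside 6.31%, the cofilin phosphatase gene Ssh2. Tmsb4x, the thymosin that holds actin monomers, was the most abundant at 5972 ± 1146 and 6192 ± 725.8 FPKM (SD, n = 3), followed by Actg1 at 2932 ± 242.3 and 2994 ± 270.4 FPKM and Actb at 1968 ± 177.3 and 1850.4 ± 72.4 FPKM. Of the WASP, ARP2/3 and WAVE genes, 0 of 18 passed in edgeR, beside the same 2.3%. At an unadjusted p under 0.05, 1 was lower, Cyfip2 of the WAVE complex, beside 2.39% of all tested genes. Arpc1b, a subunit of ARP2/3, had 705.9 ± 85.6 and 665.2 ± 77.2 FPKM (SD, n = 3).

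The other lists are also short, and their counts past the thresholds stand beside the same 2.3% of all tested genes. Their counts at an unadjusted p under 0.05 stand beside 6.31% of all tested genes, with 2.39% lower. Of the myosin light chains and kinases, 0 of 13 passed in edgeR, and 0 had an unadjusted p under 0.05, with Myl6, the essential light chain, at 984.3 ± 220.2 and 907.0 ± 194.8 FPKM (SD, n = 3). Of the talin and focal adhesion genes, 0 of 19 passed in edgeR, and Vasp and Parvg were lower at an unadjusted p under 0.05. Vasp, which shields growing actin ends, had 205.6 ± 38.4 and 160.1 ± 3.95 FPKM (SD, n = 3) and a log2 difference of -0.35 (standard error 0.16). In the spectrin list, 1 of 9 passed, Ank1, beside 2.3% of all tested genes, while Msn, the moesin that links actin to the membrane, had 340.7 ± 5.87 and 352.1 ± 13.1 FPKM (SD, n = 3).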

How the data were processed

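RNA of sorted bone marrow MKs was sequenced in 6 libraries, and genotype and replicate number came from the sample labels. The authors mapped reads with HISAT, and the submitters' processing notes also name Bowtie2 and GRCm39/mm39. The counting tool is not given in the sources used here. The authors deposited an estimated count per gene and an FPKM value, in which the authors corrected counts for gene length and depth, for 16579 genes. The deposited estimated counts are not whole for 10.3% to 11.3% of genes per library and were rounded. Library totals were 16467560 to 17156728 counts. Replicates had Pearson correlations of 0.98 to 0.99 in log2 CPM, and all pairs differed beyond sampling noise. A further 16 columns of per-sample values were not used, of which 4 belong to 1 library that matches no sample mapped here. Columns of group means were not used either.

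Counts of the 12256 genes kept by the filter of edgeR 4.0.16 (R 4.3.3) were scaled by TMM and tested with its quasi-likelihood test, genotype only, with Benjamini-Hochberg adjustment. A gene was called at a fold of 1.5 and an unadjusted p under 0.05, after the study's methods. Fold intervals are 95% intervals of that fit. Positive log2 fold changes mean higher in Becn1f/f;Pf4-iCre libraries. Permutation tests were exact and two-sided, over samples, and cannot go below p = 0.1. Family shares are shares of summed FPKM. The steps were tested on simulated data.

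The genes named are the 10 members, Becn1, all paralogs in the family shares, the genes of each list past the thresholds or at the highest FPKM, and the 5 genes most like Tubb1. Some genes that fall under this rule, and family shares and lists that rest on them, are not reported here. Those named at an unadjusted p alone (Ssh2, Cyfip2, Parvg) and single cell type markers were chosen after their values were seen. The members and lists were chosen with earlier results of these data known. Promoters are RefSeq on GRCm38.p6 (9 of 10 members matched). The build differs from that in the notes, so no coordinate was joined to the deposited values.

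Alternatives were DESeq2 1.42.0, its size factors in edgeR, upper-quartile scaling, no filter, at least 10 counts in every library, limma-voom, limma 3.58.1 on log2(FPKM + 1) with and without a mean of at least 1 FPKM and on log2(FPKM + 0.1) with it, the replicate number as a block, a GC and length correction, other thresholds, CPM per kilobase, and leaving out each library.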

Additional observations from a re-analysis of the deposited data

How the results depend on the processing

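Of 170 values recomputed under alternatives for the genes, 156 kept their direction and their side of the thresholds. None of the 10 was called with edgeR, DESeq2, limma-voom, limma on FPKM, either other scaling, either filter or the GC and length correction. With no minimum fold 1 was called, Actn1, and leaving out a library gave 0 to 1. Deviations of same-numbered libraries correlated at 0.068, -0.279 and 0.201, and those of differently numbered libraries at -0.297 to 0.241. These ranges overlap and the labels name no shared mouse, litter or batch. Whether the replicate numbers pair the samples therefore cannot be decided here. With the replicate block 1 gene was called in edgeR, Tubb1, at -0.76 on the log2 scale. Log2 fold changes crossed 0 only when a library was left out: Tubb1 ranged from -1.71 to 0.13, Flna from -0.081 to 0.037, Diaph1 from -0.057 to 0.10, Tln1 from -0.14 to 0.089, Was from -0.0026 to 0.055 and Cdc42 from -0.018 to 0.19. The cause was not tested.

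Over all genes, 282 calls became 137 in limma fits of filtered log2(FPKM + 1) values and 121 in unfiltered ones (96 and 88 higher, 41 and 33 lower), and with log2(FPKM + 0.1) 72 were lower. With no minimum fold there were 773 (480 higher, 293 lower), and at an adjusted p under 0.05 by edgeR's quasi-likelihood test 5 (5 higher, 0 lower). That last count moved with the setting. It was 71 in DESeq2, 23 in edgeR with no filter, 19 with the replicate block and 0 in limma on unfiltered log2(FPKM + 1). In the other settings it was 5 to 8, and leaving out a library gave 0 to 27. Leaving out a library gave 225 to 410 calls, 133 to 267 higher and 92 to 208 lower. Log2 fold changes followed GC content of the gene (Spearman -0.34 across genes) and, after correction, hardly did (0.02).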
